A study of Arabidopsis thaliana with 4 samples.

Results

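STZ, CML37, CML38, ATL5 and BIK1 are 5 Arabidopsis genes known for being switched on within minutes by wounding, elicitors or abiotic stress. They were chosen by name, with earlier results of these data known. The platform's probe annotation gave each of them 1 probe set out of the 22746 on the array, and named probe sets cover 13356 genes in all. Probe sets were matched by gene ID, because the gene table lists 2 genes under the symbol ATL5. The probe set used is that of the RING-finger gene AT3G62690 and not of the ribosomal protein gene that shares the name. Transcript levels came from 4 Affymetrix arrays, 2 of the mutant ced1 and 2 of wild type (WT), labelled as biological replicates 1 and 2 of each. Both genotypes were in the gl1-Col0 background, were whole seedlings 16 days old, and had spent 6 h with 40% polyethylene glycol (PEG), which holds water back from the tissue and so imposes osmotic stress. The mutation is known to lie in BODYGUARD, whose loss makes the cuticle defective, and ced1 plants induce the abscisic acid (ABA) synthesis gene NCED3 only weakly under osmotic stress. The probe annotation used here names no probe set for BODYGUARD, so the genotype labels could not be checked on it. The gl1 background, which both genotypes carry, lacks most leaf trichomes. No untreated seedlings were analysed here, so every value is a level after PEG and none is an induction. The comparison bears on which stress-responsive genes stand at another level in the mutant after the same treatment.

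In plants, a wound, a microbial elicitor or a change in turgor opens calcium channels at the plasma membrane, and the calcium signal is read by EF-hand proteins such as calmodulins and calmodulin-like (CML) proteins. Elicitor receptors pass their signal to receptor-like cytoplasmic kinases, of which BIK1 is the best studied, and these act on an oxidase that makes reactive oxygen and on calcium channels. Within minutes, transcription of a shared set of genes follows, including zinc-finger repressors such as STZ and RING-type ubiquitin ligases of the ATL family, and for many of these genes the response is brief.

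Of the 5 genes, STZ fell in ced1, to 0.704 of its WT level, and the other 4 did not pass the test. The 4 had differences in both directions. CML37 and CML38 had higher mean signals in ced1, ATL5 had a lower one, and BIK1 had nearly the same mean in both genotypes. Differences are given as ced1 minus WT on the scale of log2(signal + 16), where the signal is the deposited MAS5 value. They were tested with limma over all 13648 probe sets above a low-signal limit, with Benjamini-Hochberg adjustment over all of these and a limit of 0.05 on the adjusted p. In the same comparison 42.4% of all tested probe sets passed, 23.2% as higher and 19.2% as lower in ced1, so that a count of 1 in 5 does not exceed the share among all probe sets. All 5 members passed the low-signal limit of about 102.7.

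**Figure D1:**
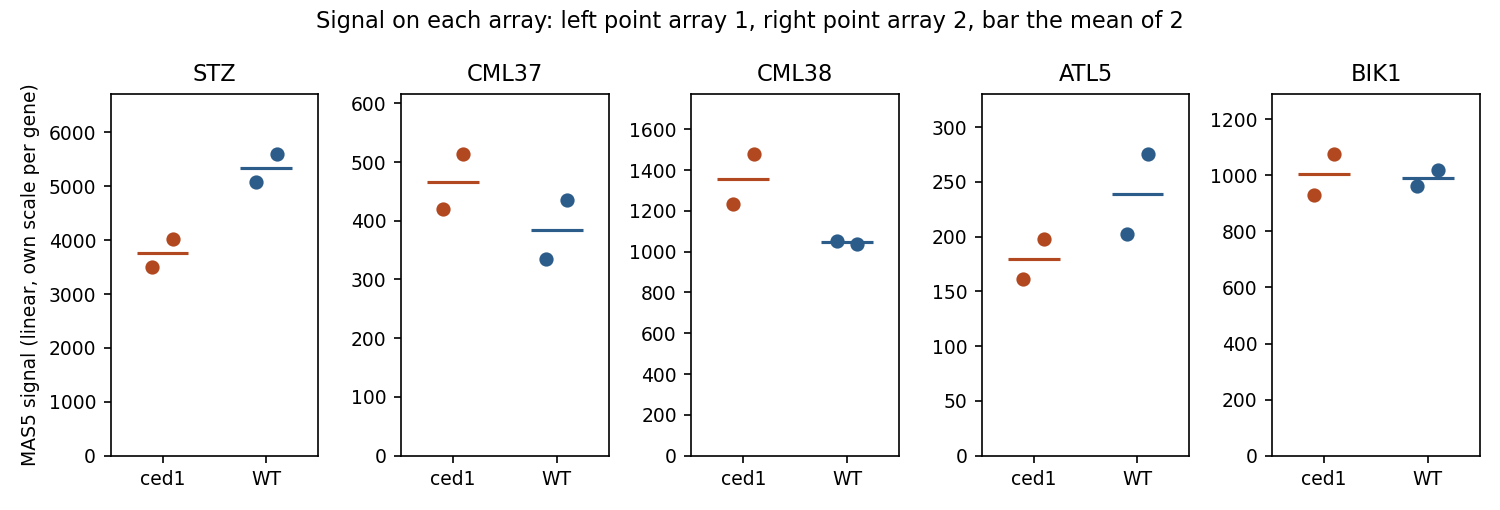
MAS5 signal (linear, from 0, with its own scale for each gene) of the 5 genes on the 2 ced1 arrays and the 2 WT arrays; the left point is array 1, the right point array 2, and the bar is their mean. STZ has both ced1 points (3496.4 and 4016) below both WT points, CML38 has both above, ATL5 has both narrowly below, and the points of CML37 and BIK1 overlap.

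STZ (salt tolerance zinc finger, also ZAT10, AT1G27730) codes for a zinc-finger protein that represses transcription and is induced by salt, drought, cold, intense light and wounding. Its probe set, 261648_at, had a signal of 3496.4 and 4016 on the ced1 arrays, against 5074.5 and 5603 on the WT arrays. Both ced1 signals lay below both WT signals, with a gap wider than the distance between the arrays of either genotype. The mean was 3756 ± 367 in ced1 and 5339 ± 374 in WT (SD, n = 2 each). The log2 difference was -0.51 ± 0.13 (SE), with a 95% interval of -0.82 to -0.20 (limma, adjusted p = 0.0196). STZ was thus lowered to between 0.567 and 0.873 of its WT level by that interval. Its transcript remained abundant in the mutant: 96.0% and 96.6% of all probe sets had a lower signal on the ced1 arrays, against 97.5% and 98.0% on the WT arrays. Such ranks do not move when an array is multiplied by a factor. The call was lost when either mutant array was left out. Here and for the genes below, a fit with a lone array of a genotype takes its spread from the other genotype. Over all tested probe sets the WT arrays differed more than the ced1 arrays, with a median absolute difference of 0.24 against 0.12. Calls over all probe sets were also fewer without a ced1 array, so such a loss is not particular to STZ. Without ced1 array 1 the difference was -0.41 (limma, adjusted p = 0.225), and without ced1 array 2 it was -0.61 (limma, adjusted p = 0.0881). In size the change was ordinary for this comparison, since 54.8% of the tested probe sets had a smaller absolute difference and 20.4% had a lower signed one.

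CML38 (AT1G76650) codes for an EF-hand calcium sensor that is induced by wounding and low oxygen and is found in RNA granules of stressed cells. Probe set 259879_at had a signal of 1233.9 and 1479.7 on the ced1 arrays, against 1053.2 and 1037.6 on the WT arrays. The WT arrays nearly coincided, both ced1 arrays lay above them, and the ced1 arrays were farther from each other than the lower of them was from WT. The log2 difference was 0.37 ± 0.15 (SE), with a 95% interval of 0.01 to 0.72, and did not pass after adjustment (limma, adjusted p = 0.0870). That interval, which is not adjusted for the number of probe sets, reaches from 1.01 to 1.64 times the WT level. With WT array 1 or WT array 2 left out the difference passed, at 0.38 and 0.35 (limma, adjusted p = 0.0418 and 0.0451). Without ced1 array 1 or ced1 array 2 it did not pass, at 0.49 and 0.24 (limma, adjusted p = 0.207 and 0.566).

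CML37 (AT5G42380), a related EF-hand sensor that is induced by wounding and insect feeding and promotes jasmonate signalling, had a signal of 419.4 and 513.9 on the ced1 arrays, against 334.9 and 434.9 on the WT arrays. The lower ced1 array fell between the WT arrays, so the groups overlapped. The log2 difference was 0.27 ± 0.19 (SE), with a 95% interval of -0.18 to 0.73 (limma, adjusted p = 0.290). The value moved with the array left out: it was 0.091 without WT array 1, and 0.45 without WT array 2, where it passed. Without ced1 array 1 or ced1 array 2 it was 0.41 and 0.13 and did not pass. The gene table also lists CML39 among the synonyms of CML37, so the values here are those of probe set 249197_at and of this locus.

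ATL5 (AT3G62690) belongs to the ATL family of membrane-anchored RING ligases, many of which are induced early by elicitors. Probe set 251190_at had a signal of 161.5 and 197.7 on the ced1 arrays, against 202.3 and 275.7 on the WT arrays. The groups did not overlap, but the gap between the higher ced1 array and the lower WT array was far smaller than the distance between the WT arrays. The log2 difference was -0.37 ± 0.22 (SE), with a 95% interval of -0.89 to 0.15 (limma, adjusted p = 0.211). Without WT array 1 it was -0.58 and passed (limma, adjusted p = 0.0385), and without WT array 2 it was -0.16. Without ced1 array 1 or ced1 array 2 it did not pass, at -0.24 and -0.51 (limma, adjusted p = 0.650 and 0.319).

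BIK1 (AT2G39660), the cytoplasmic kinase that is phosphorylated by the receptor complexes of bacterial flagellin and other elicitors, had a signal of 930.4 and 1076.7 on the ced1 arrays, against 962.3 and 1017.9 on the WT arrays. Both WT arrays lay between the ced1 arrays. The mean was 1004 ± 103 in ced1 and 990.1 ± 39.3 in WT (SD, n = 2 each), a log2 difference of 0.02 ± 0.15 (SE). The 95% interval of -0.33 to 0.36 bounds the level in ced1 between 0.795 and 1.29 times that in WT, so equal levels are not shown and differences within those bounds remain possible. Of the tested probe sets, 1.82% had a smaller absolute difference than BIK1.

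**Figure D2:**
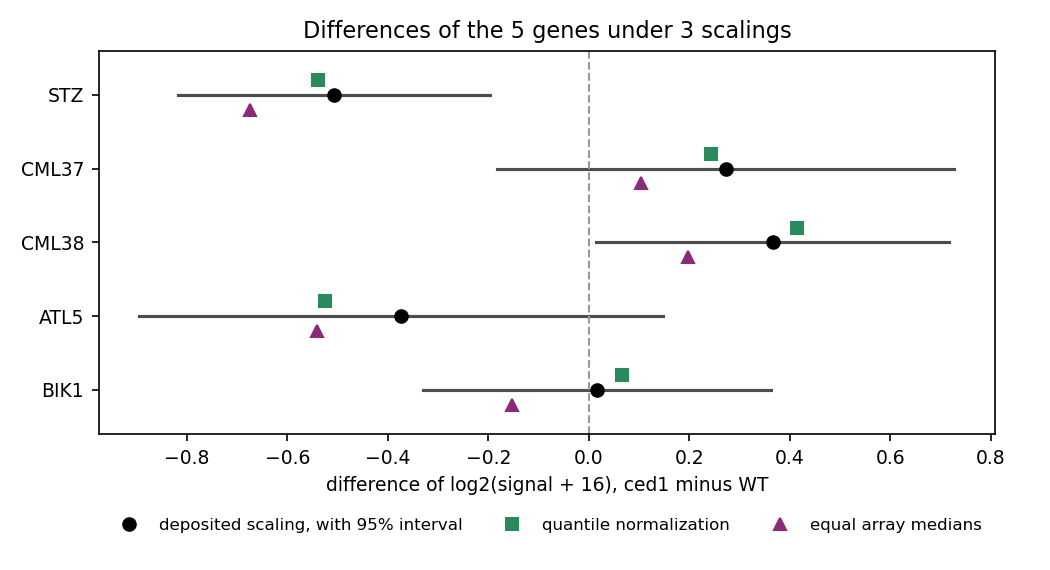
Difference of log2(signal + 16), ced1 minus WT, for the 5 genes; circles use the deposited scaling, with the 95% interval of the limma fit as a line, squares quantile normalization and triangles equal array medians. STZ lies below 0 under all 3 scalings, between -0.68 and -0.51, while BIK1 lies at 0.02 with the deposited scaling and at -0.15 with equal array medians.

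The array scaling sets how these small differences are read. The deposited signals have an unequal median, 186.4 and 187.5 on the ced1 arrays against 156.3 and 173.3 on the WT arrays, and with equal medians the difference of a typical probe set (the median over all those tested) was -0.09, a shift of -0.17 against the deposited scaling, where it was 0.07. With equal medians STZ was at -0.68 (limma, adjusted p = 0.00871) and ATL5 at -0.54 (limma, adjusted p = 0.0642). CML37 and CML38 were then at 0.10 and 0.20, and BIK1 changed sign to -0.15. With quantile normalization the 5 differences were -0.54 for STZ, 0.24 for CML37, 0.41 for CML38, -0.52 for ATL5 and 0.07 for BIK1. STZ thus passed, and the other 4 did not, under each of the 3 scalings. Over all probe sets, 3161 were higher and 2626 lower with the deposited scaling, against 2213 higher and 3437 lower with equal medians.

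Ranks within each array, which a common factor does not alter, gave the same order of genotypes as the signals for STZ, CML38 and ATL5. For CML38, 87.7% and 89.8% of all probe sets were dimmer on the ced1 arrays, against 85.3% and 84.9% on the WT arrays. For ATL5 these shares were 47.2% and 51.1% in ced1, against 54.9% and 59.4% in WT. For CML37 they were 68.2% and 73.0% in ced1, against 64.8% and 69.0% in WT, and for BIK1 83.8% and 86.0% in ced1, against 83.9% and 84.6% in WT, with overlapping groups for both. Groups did not overlap in signal for 3 of the 5 genes, against 74.7% of all tested probe sets.

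**Figure D3:**
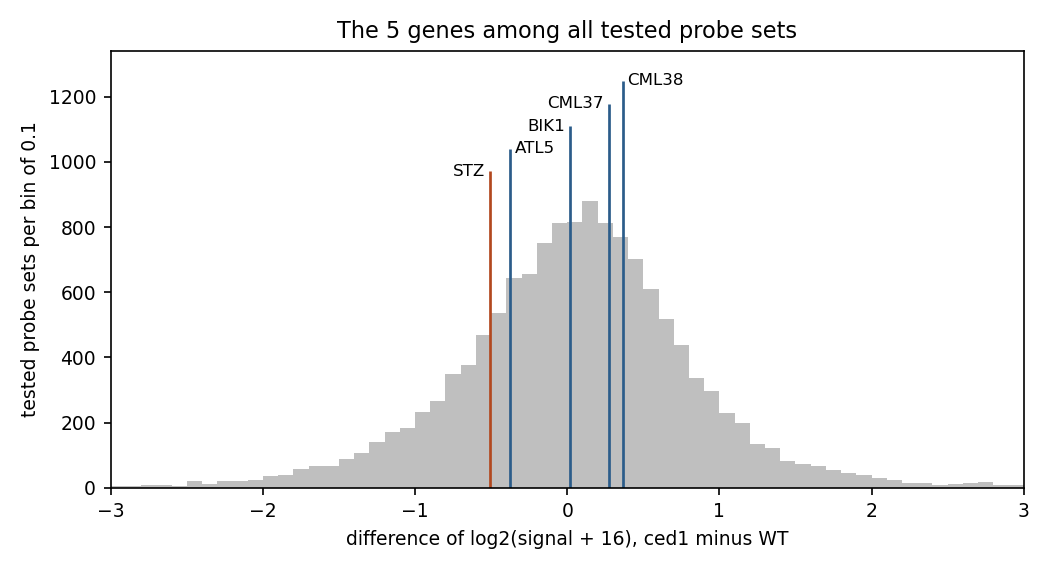
Number of tested probe sets (in bins of 0.1) by difference of log2(signal + 16), ced1 minus WT; 66 probe sets lie outside the range drawn. The vertical lines are the 5 genes, orange where the adjusted p was under 0.05 and blue otherwise; all 5 lie in the middle of the distribution, between -0.51 and 0.37.

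The 5 genes were also set against each other within each array, where a common factor on all signals of an array nearly cancels. Quantile normalization does not cancel in this way. The log2 ratio of STZ to CML38 was lower in ced1 by -0.87 on average, with the ced1 arrays at -0.84 and -0.90 and the WT arrays at -0.08 and 0.08, as distances from the WT mean. The ratio of STZ to CML37 differed by -0.78 and that of STZ to BIK1 by -0.52, and in these 3 ratios both ced1 arrays lay apart from both WT arrays by more than either pair differed within itself. The ratio of STZ to ATL5 differed by -0.13 and the groups overlapped. The ratio of CML37 to CML38 differed by -0.09, with overlapping groups, so the pair of calcium sensors was not separable. CML38 stood higher against ATL5 in ced1 by 0.74, and CML37 by 0.65. Over the 10 pairs of genes, 8 had groups that did not overlap, each with an exact two-sided permutation p of 0.333, the smallest that 2 arrays against 2 can give, and an adjusted p of 0.417 over the 10 pairs. The 10 pairs share 5 genes, and the share of pairs without overlap among other probe sets was not computed. No pair could have passed in a design of this size. The test thus says nothing for or against a difference between the genes, and the values stand as a description.

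**Figure D4:**
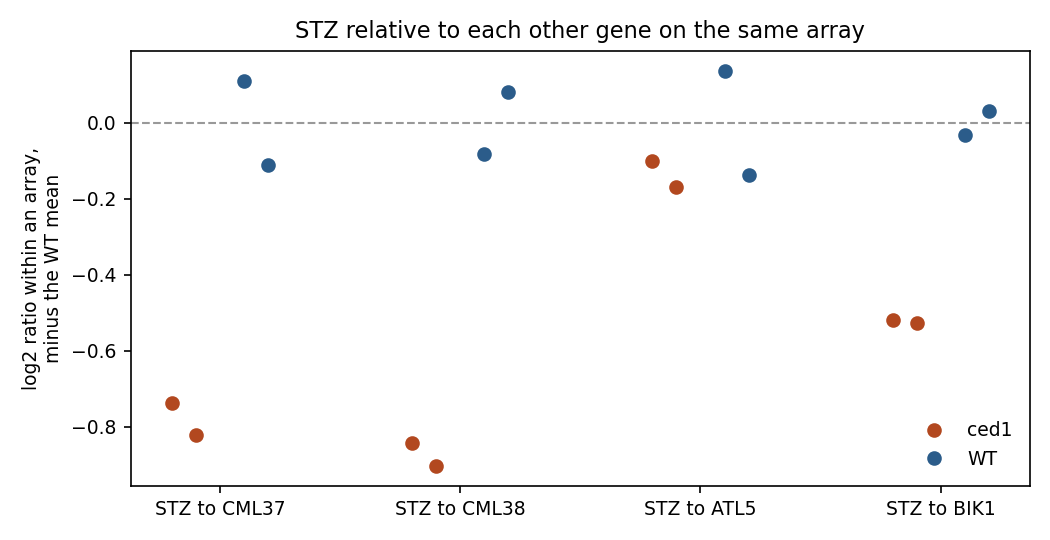
Log2 ratio of STZ to each of the other 4 genes on the same array, minus the mean of the WT arrays; each point is 1 array, with ced1 to the left of WT in each column. The ced1 points lie below the WT points for CML37, CML38 and BIK1, by -0.78, -0.87 and -0.52 on average, and overlap them for ATL5.

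The replicates of a genotype differed in a like way for most of the 5 genes. On ced1 array 2 all 5 had a higher signal than on ced1 array 1, by 0.20 to 0.28 on the log2 scale, while 51.5% of all tested probe sets were higher there and the median absolute difference between the ced1 arrays was 0.12. On WT array 2, 4 of the 5 were higher than on WT array 1, by 0.08 to 0.42, against 56.6% of all tested probe sets, and CML38 was lower by -0.02. The median absolute difference between the WT arrays was 0.24. Nothing in the labels says what sets the arrays of a genotype apart, and its part in the results was not tested.

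Few relatives of these genes can be followed. The probe table names a single gene for 13513 of the 22746 probe sets, but named probe sets were scarcer among the genes listed below. The reason for that was not tested. The gene table names 21 genes as calmodulins or calmodulin-like proteins by symbol or synonym, and 8 of them had a named probe set. The 5 that were tested include CML37 and CML38 themselves. Of these 5, 1 was lower, none was higher and 4 did not pass by limma after adjustment. Among all tested probe sets, 19.2% were called lower and 23.2% higher. The count of 1 in 5 is thus close to the share among all probe sets. The median difference of the 5 was 0.18, against 0.07 for all tested probe sets. Among the 4 that did not pass, CML38 was the one with an unadjusted p under 0.05 (0.0435 by limma). The lower one was CML30, an EF-hand protein of mitochondria, with a signal of 209.4 and 233.5 in ced1, against 320 and 352.1 in WT, and a difference of -0.57 ± 0.17 (limma, adjusted p = 0.0340). That call was lost without ced1 array 1, without ced1 array 2 and without the low-signal filter, at -0.50, -0.64 and -0.57. CML23, which acts in flowering and nitric oxide signalling, differed by 0.18 ± 0.21, and CML42, known from trichomes and herbivore defence, by 0.03 ± 0.24. CML39 (AT1G76640), which lies next to CML38 on the chromosome, had signals of 6.9 and 4.3 in ced1, against 3.4 and 2 in WT, far under the low-signal limit. CML41, which acts at plasmodesmata in immunity, and CML43 were on average under the limit too, with signals from 59 to 108.5 over the 4 arrays.

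Of the ATL ligases, 3 had a named probe set. ATL8 (AT1G76410), a gene known from sugar starvation, rose in ced1, with a signal of 292.1 and 319.7 against 158.1 and 223.2 in WT and a difference of 0.66 ± 0.21 (limma, adjusted p = 0.0417). ATL8 and ATL5 thus lay on opposite sides of 0, and the difference between them was not tested. The call of ATL8 was lost in 6 of 12 alternatives, among them equal array medians (0.49), quantile normalization (0.52) and leaving out WT array 1 (0.43), ced1 array 1 (0.72) or ced1 array 2 (0.59). ATL63 was under the low-signal limit on all 4 arrays, at 19.9 and 45 in ced1, against 4.8 and 6 in WT. STZ was the only gene of its zinc-finger kind, out of 9 in the gene table, with a named probe set.

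Around BIK1, the related kinase gene APK1A (AT1G07570) fell in ced1, with a signal of 303.5 and 299.1 against 596.6 and 664.9 in WT and a difference of -1.03 ± 0.15 (limma, adjusted p = 0.00244). APK1A passed under all 13 alternatives run. PBL27 (AT5G18610), a kinase of chitin signalling, was under the low-signal limit on all 4 arrays, at 4.5 and 3.7 in ced1, against 42 and 62.9 in WT. PUB25 and PUB26 are a pair of U-box ubiquitin ligases that mark inactive BIK1 protein for degradation. PUB26 (AT1G49780) had a signal of 207.7 and 254.1 in ced1, against 57.3 and 111.3 in WT, and was called higher, with a difference of 1.35 ± 0.30 (limma, adjusted p = 0.0112). Its mean WT signal lay under the low-signal limit, so the size depends on the offset of 16, and it entered the test only through its signal in ced1. Without ced1 array 2 the difference was 1.21 and did not pass (limma, adjusted p = 0.0685). PUB25 (AT3G19380) had 137.4 and 150.6 in ced1, against 84.5 and 95.2 in WT, a difference of 0.60 ± 0.22 that did not pass (limma, adjusted p = 0.0673). Both its WT signals lay under the limit, so it too entered the test only through ced1. BIK1 itself had nearly equal mean signals, as given above. All of these values are transcript levels, and BIK1 protein was not measured. The receptor gene EFR was under the limit, with signals of 71 and 34.7 in ced1, against 70.5 and 41.1 in WT.

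Of 56 genes of the gene table that match a list of rapid wound, touch and elicitor genes, 5 had a named probe set, 3 were tested and none passed by limma with adjustment, nor had any an unadjusted p under 0.05. Beside the 42.4% of all tested probe sets that were called, 0 of so few genes says nothing particular about the list. WRKY22, a transcription factor of the elicitor-activated kinase cascade, differed by 0.32 ± 0.35 with WT arrays far apart, at 120.6 and 273.9. Without WT array 2 it passed at 0.86, and without WT array 1 it was at -0.22. PUB23 and PUB24, ubiquitin ligases that dampen elicitor responses, differed by 0.18 ± 0.23 and 0.28 ± 0.25. PUB22 of the same trio and WRKY53 were under the low-signal limit on average, with signals of 40.6 to 100.5. None of the 68 genes of the gene table that match a list of CAMTA factors and calcium decoders had a named probe set.

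**Figure D5:**
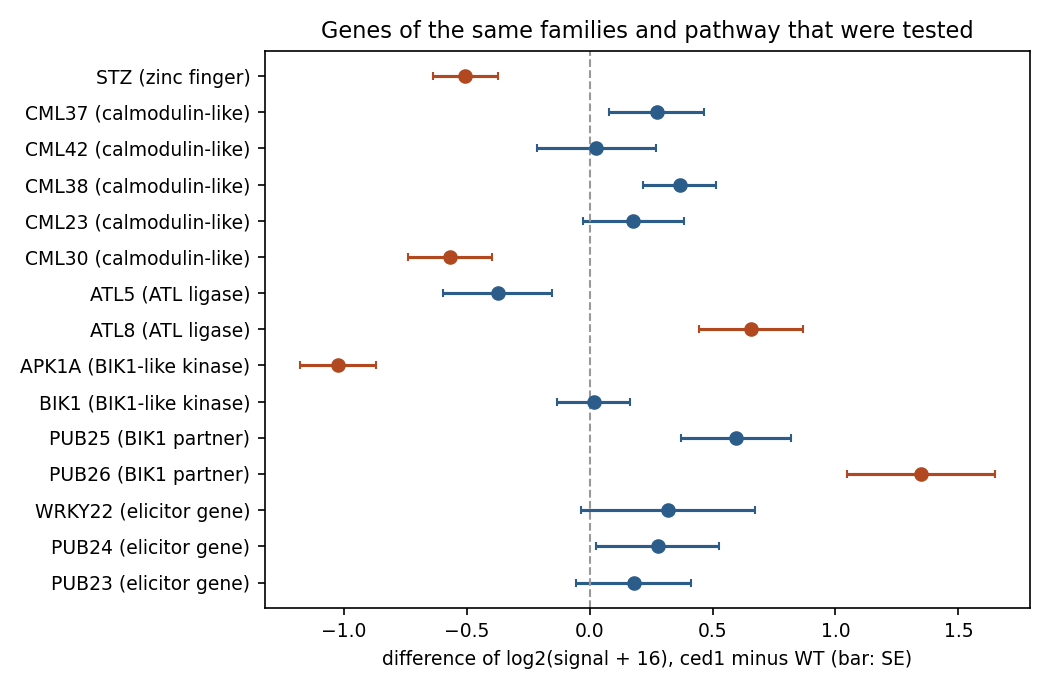
Difference of log2(signal + 16), ced1 minus WT, with its SE as a bar, for the tested genes of the family, pathway and rapid-response lists, the 5 genes included and the cell type markers not drawn; orange marks an adjusted p under 0.05 and blue any other. Among the genes drawn, CML30, STZ and APK1A are lower and ATL8 and PUB26 higher by the test, with APK1A at -1.03 and PUB26, which entered the test only through its ced1 signal, at 1.35.

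The genes whose profile over the 4 arrays lay nearest to that of each gene were found among 7259 tested, named probe sets, by Euclidean distance between log2 profiles centred on their mean. Over so few arrays many genes lie close, and likeness here is a description. Nearest to STZ, at distances from 0.0314 to 0.0387, were AT4G20300, AT3G61180 and AT3G17710, with differences of -0.52, -0.53 and -0.51. Nearest to CML38 were AT1G80245, GLDH, which codes for the last enzyme of ascorbate synthesis, and rpoA, a plastid-encoded polymerase subunit, with differences of 0.38, 0.38 and 0.40. Nearest to CML37 were AT5G09450, AT2G39950 and OTP84, an RNA-editing factor of plastids, at 0.24 to 0.27. Nearest to ATL5 were AT3G04750, GPT and AT1G52320, at -0.44 to -0.33. Nearest to BIK1 were the Mediator subunit gene MED6, the ubiquitin-conjugating enzyme gene UBC29 and AT1G09010, at -0.03 to 0.02.

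The labelled tissue, whole seedlings, was checked on markers. Of the listed markers, 3 of root and 2 of the stomatal lineage had a named probe set, and no listed leaf mesophyll, phloem, epidermis or trichome marker did. None was listed at 0, which says little, because absence cannot be judged from a low signal without detection calls. The summed signal of the root markers PYK10, EXPA7 and EXPA18 was 6536 and 6064 in ced1, against 9788 and 9694 in WT. Nearly all of it was PYK10, a myrosinase of root ER bodies, which fell by 0.64 on the log2 scale (limma, adjusted p = 0.00442; without ced1 array 2 it was -0.59 and did not pass), while EXPA18 differed by -0.06. The sum of FMA and SPCH, regulators of stomatal development, was 301 and 281.9 in ced1, against 184.6 and 133.4 in WT. FMA overlapped between the genotypes and did not pass, with a difference of 0.38 ± 0.30 (limma, adjusted p = 0.339). SPCH was left out of the test by the low-signal filter, with signals of 109.6 and 126.5 in ced1, against 8.9 and 40.5 in WT. The part of tissue makeup in the difference of STZ, which is of a size with that of PYK10, was not tested. In whole seedlings, fewer cells of a type and less RNA per cell cannot be told apart.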

How the data were processed

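RNA of 2 ced1 and 2 WT samples was measured on 1-colour Affymetrix arrays. Deposited intensity values are linear, 1 per probe set, and came from MAS5, per the submitters' processing notes, which scales arrays to one trimmed mean; the sources used here give neither version nor settings. Titles gave groups and replicate numbers. Nothing says how replicates were grown apart, so p-values rest on the spread between these samples, and the number of arrays limits precision. For each probe set, limma moderates that spread with the spread of probe sets of like signal.

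Values of log2(signal + 16), which understates changes of dim probe sets, were fitted with limma 3.58.1 in R 4.3.3 (lmFit; eBayes with an intensity trend; genotype alone in the model). The 40% of probe sets with the lowest mean were left out, which left 13648. The procedure was tested on simulated data. Alternatives changed offset, filter, scaling, trend, replicate block and arrays.

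Of the probe sets, 13513 have a single gene in the platform annotation, 503 have several (none a member) and 8730 are absent from it. Symbols of 13436 were updated by gene ID from TAIR10.1. With no build named by the files, coordinates are left out; sequences were not used here. FDH among the epidermis markers matched another gene, formate dehydrogenase, and was dropped.

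Members and lists were chosen with earlier results of these data known. From each list, up to 4 tested genes of largest absolute difference were named, and for each member 3 nearest profiles. CML42, genes under the low-signal limit and the comparison with the neighbour CML39 were added with their values known. Gene functions are general knowledge. Replicate deviations of the genotypes correlated at 0.091 across probe sets, and the labels do not pair the arrays.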

Additional observations from a re-analysis of the deposited data

How the results depend on the processing

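Among the alternatives run, STZ kept its direction under all 13 and its call under 11. Without each array in turn, differences ranged from -0.61 to -0.41 for STZ, 0.091 to 0.45 for CML37, 0.24 to 0.49 for CML38, -0.58 to -0.16 for ATL5 and -0.088 to 0.12 for BIK1. Counts over all probe sets then ranged from 1200 to 4535 higher (3161 on 4 arrays) and from 1329 to 3333 lower (2626), and were 1313 and 1200 higher and 1426 and 1329 lower without ced1 arrays 1 and 2. In these fits a lone array takes its spread from the other genotype. ATL5 was under the 60th percentile filter and has no value there. With the replicate number as a block (replicate block), which the labels do not support, STZ was at -0.51 (limma, adjusted p = 0.00622), none of the 5 genes changed its side of the threshold, and 3608 probe sets were higher and 2951 lower. BIK1 turned sign at -0.15 with equal medians, -0.024 without WT array 1 and -0.088 without ced1 array 2. CML42 was at -0.13 with quantile normalization and -0.14 with equal medians, MED6 at -0.11 and -0.17, and UBC29 at -0.15 with equal medians. Without each array in turn, signs turned within the ranges of -0.23 to 0.29 for CML42, -0.052 to 0.40 for CML23, -0.22 to 0.86 for WRKY22, -0.024 to 0.79 for FMA, -0.27 to 0.15 for EXPA18, -0.094 to 0.098 for MED6, -0.065 to 0.10 for UBC29 and -0.13 to 0.069 for AT1G09010. The causes of these turns were not tested. Of the 349 alternatives for the other 28 named genes, 300 kept direction and side of the threshold, 23 lost a call, 9 gained one and 17 turned sign. Without detection calls, absence could not be judged from a low signal.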
